A study of Mus musculus and Homo sapiens with 28 samples.

Results

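The genes described here are 48 components of DNA replication, chosen by name and not by any measured value: subunits of the origin recognition complex, licensing factors, the replicative helicase and the factors that switch it on, the sliding clamp and its loaders, single-strand binding proteins, the primase and replicative polymerases, enzymes of Okazaki fragment maturation, enzymes of nucleotide supply and a chromatin assembly factor. All 48 were found by symbol among the 56269 rows of the human table and by Ensembl identifier, named through GENCODE vM21, among the 46078 rows of the mouse table. All 48 also passed the filter of the mouse comparisons, a mean value of at least 3 over all 24 libraries.

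Replication starts when the origin recognition complex, with CDC6 and CDT1, loads the MCM2 to MCM7 ring onto DNA before S phase. The kinase CDC7 with its partner DBF4, and the later arrival of CDC45 and the GINS complex, turn that ring into a moving helicase, after which primase, polymerases and the PCNA clamp copy the strands behind it. Many of these genes are transcribed under E2F control around the entry into S phase, and the ATR and CHK1 kinases restrain new origin firing when forks stall. Inhibitors of both kinases are studied in renal carcinoma, where the histone methyltransferase gene SETD2 is often mutated.

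RNA sequencing covered 28 libraries in 6 groups. In 786-O cells, a human renal cell carcinoma line labelled WT, 2 libraries came from cells given a CHK1 inhibitor at 25 nM for 48 hours and 2 from untreated cells, in 2 separate experiments; the inhibitor is called LY2606368 in the description of the design and LY2603618 in the treatment protocol. In Renca, a mouse renal carcinoma line grown under the skin of the back in Matrigel, 5 tumours were labelled SETD2 KD with VE822, 6 SETD2 KD untreated, 6 WT with VE822 and 7 WT untreated. VE822, an ATR inhibitor, was given orally at 60 mg/kg on 5 days a week from the time tumours could be felt. The sources used here do not give the mouse strain, age and sex, the means of SETD2 knockdown, the number of clones or the length of treatment. A Renca tumour also contains mouse host cells whose transcripts carry the same names, and a lower level of a transcript in a whole tumour cannot be told apart between fewer cells of a type and less RNA per cell.

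The human values were deposited on a variance-stabilised log2 scale, from which whole counts could be recovered, 20834400 to 23956007 per library. The lowest count of any of the 48 genes was 144, for POLE2 in replicate 2 of the treated cells, with an exact Poisson 95% interval of 121 to 170 that covers counting error only. The mouse values were deposited as regularised log2 values (rlog), which keep no depth, so their depth is unknown. In untreated tumours Setd2 RNA did not follow the genotype labels: rlog ranged from 10.70 to 10.88 with a median of 10.82 in the SETD2 KD label, and from 10.74 to 10.91 with a median of 10.79 in the WT label. With VE822 it was lower without overlap, at 9.42 to 9.96 in SETD2 KD VE822 and 9.58 to 10.28 in WT VE822, a larger difference (-1.09 and -0.80) than for any of the 48 genes. For these reasons tumours are named below by their labels. The renal carcinoma markers Pax8, Pax2, Krt8, Krt18 and Vim were well above the lower end of the scale in every tumour library, Cdh2 lay between 3.91 and 5.08 and Epcam between 5.42 and 7.88. In 786-O cells CDH1 was at or near the value of a count of 0. Libraries WT VE822 1, 2 and 4 and WT untreated 4 had a skeletal muscle list mean between 6.55 and 8.89, against 5.17 or less in the other 20, and SETD2 KD VE822 4 stood apart on the second principal component; the calls that change without these 5 libraries are given with the cell type markers.

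Promoter sequences are shown for the helicase genes Mcm3 and Mcm6, which were lower with VE822 in the SETD2 KD label but did not pass in the WT label, and for Cdc45, which was higher with VE822 in both labels, because the letters of an E2F motif differ between them. They were chosen for this contrast and do not stand for the 48 genes. In the SETD2 KD label 5 genes with a match and 6 without one were lower. RefSeq windows on mouse GRCm38.p6, from 250 bases before to 50 bases after each transcript start, were available for 40 of the 48 genes, as 47 windows; Mcm4, Gmnn, Gins1, Gins2, Gins4, Rfc2, Prim2 and Pole were not in that table. The search used TTTCCCGC, TTTCGCGC, TTTGCCGC and TTTGGCGC on both strands, and capitals mark a match. Positions count from 1 at the start of the transcript, with negative positions upstream. The Mcm3 window lies at chr1:20820263-20820562 on the minus strand, with matches beginning at 20 and 39. The Mcm6 window lies at chr1:128359656-128359955 on the minus strand, with overlapping matches beginning at -110 and -106 and another at -47. The Cdc45 window lies at chr16:18811923-18812222 on the minus strand and holds no match.
Mcm3: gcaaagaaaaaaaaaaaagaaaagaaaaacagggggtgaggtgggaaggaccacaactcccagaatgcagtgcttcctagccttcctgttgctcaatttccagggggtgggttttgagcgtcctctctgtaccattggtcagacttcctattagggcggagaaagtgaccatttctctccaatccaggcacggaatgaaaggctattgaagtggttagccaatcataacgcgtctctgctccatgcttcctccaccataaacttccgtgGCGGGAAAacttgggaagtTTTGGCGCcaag
Mcm6: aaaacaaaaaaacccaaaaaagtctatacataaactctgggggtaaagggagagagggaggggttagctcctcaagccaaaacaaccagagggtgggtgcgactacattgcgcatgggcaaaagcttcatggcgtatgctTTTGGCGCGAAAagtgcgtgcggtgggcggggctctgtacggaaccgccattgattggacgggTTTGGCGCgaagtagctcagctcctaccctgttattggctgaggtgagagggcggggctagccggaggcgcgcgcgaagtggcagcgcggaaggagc
Cdc45: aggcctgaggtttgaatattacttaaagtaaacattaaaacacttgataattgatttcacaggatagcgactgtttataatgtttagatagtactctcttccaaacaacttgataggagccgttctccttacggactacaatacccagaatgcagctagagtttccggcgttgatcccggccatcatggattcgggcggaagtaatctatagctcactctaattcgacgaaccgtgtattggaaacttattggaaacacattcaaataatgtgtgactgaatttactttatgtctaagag

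Of the 47 windows, 16 (34.0%) held at least 1 of the 4 E2F motifs, against 744 (2.26%) of all 32851 windows of the same length. CCAAT, the box bound by NF-Y, occurred on either strand in 26 of the 47 (55.3%) and in 37.4% of all windows. A match is a description of the letters and not of binding, and the lack of one says only that these letters are not in this window. Human promoters were not searched, so 786-O genes are sorted below by the mouse window of the same symbol. Among the 16 genes with an E2F match in mouse, the counts passing the test in the comparisons described below were 7 lower and 0 higher with CHK1 inhibitor in 786-O. They were 5 lower and 0 higher with VE822 in the SETD2 KD label, and 2 lower and 0 higher with VE822 in the WT label. Among the 24 genes with a window and no match they were 10 lower and 1 higher in 786-O, 6 lower and 2 higher in the SETD2 KD label, and 3 lower and 4 higher in the WT label. These counts are to be read beside the shares of all genes that were called. Shares were 6.16% lower and 7.05% higher in 786-O, 11.6% and 10.6% in the SETD2 KD label, and 17.5% and 17.2% in the WT label. A separate 786-O fit of only the genes whose mean was 5 or more, with its own adjustment, called 25.2% lower and 23.7% higher. The 786-O counts above are not from that fit. Median log2 differences with and without a match were -0.47 and -0.41 in 786-O. These medians were -0.06 and -0.10 in the SETD2 KD label, and -0.07 and 0.02 in the WT label. The difference between the sets was not tested.

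In 786-O cells the replication genes were mostly lower with CHK1 inhibitor. Calls here and in the gene descriptions that follow come from a fit that did not pair the libraries by experiment. With the experiment as a replicate block, given below, further genes passed. Of the 48, 20 fell and 1 rose at a limma adjusted p under 0.05, on a background of 13.2% of all 29353 genes tested passing in either direction (6.16% lower and 7.05% higher). The median difference of the 48 was -0.44 on the log2 scale, beside 0.08 over all genes tested and -0.02 over the 12731 whose mean was 5 or more. The mean of the treated libraries lay below that of the untreated ones for 40 genes and above it for 8. Both treated libraries were below both untreated ones for 35 genes, on a background of 23.3% of all genes tested and 39.7% of those whose mean was 5 or more, and above both for 6 genes, on a background of 29.1% and 37.3%.

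RFC4 and LIG1 had the lowest differences of the 48 genes. RFC4, a subunit of the clamp loader, had 631 and 650 normalised counts in treated cells, against 1482 and 1605 in untreated cells. Treated libraries thus held 41.5% of the untreated mean, a log2 difference of -1.25 ± 0.08 (SE, n = 2 each, limma adjusted p = 0.0232). PCNA, the sliding clamp that tethers the polymerases, had 2866 and 2670.3 normalised counts in treated cells, against 5127 and 5622 in untreated cells. The groups did not overlap and differed by -0.95 ± 0.08 (limma adjusted p = 0.0238). RFC1, the large subunit of the loader, fell by 0.36 on the log2 scale, while RFC2, RFC3 and RFC5 differed by -0.16, -0.08 and -0.27 and did not pass.

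LIG1, the ligase that seals Okazaki fragments, had 703 and 759 normalised counts in treated cells, against 1608 and 1847 in untreated cells. It stood at 42.3% of the untreated mean, with both treated libraries far below both untreated ones (log2 difference -1.23 ± 0.11, limma adjusted p = 0.0238). FEN1, the flap endonuclease that trims these fragments, fell by 0.44, and WDHD1, which links polymerase alpha to the helicase, differed by -0.54 (limma adjusted p = 0.0817). Among the primase and polymerase genes PRIM2, the large primase subunit, had 404 and 382 normalised counts in treated cells, against 800.3 and 798 in untreated cells. That is 49.2% of the untreated mean, again without overlap (SE of the log2 difference 0.08, limma adjusted p = 0.0232). PRIM1, the catalytic primase subunit, fell by 0.56, POLE2, a subunit of the leading-strand polymerase, fell by 0.54, and POLD1, the catalytic subunit of the lagging-strand polymerase, fell by 0.47. POLA1 at -0.67 and POLA2 at -0.34 did not pass, and neither did POLD2, an accessory subunit of the same polymerase as POLD1, at 0.37.

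The helicase genes, grouped here with MCM8 and MCM10 from outside the MCM2 to MCM7 ring, split. MCM6 had 1927 and 1627 normalised counts in treated cells, against 3349 and 3535 in untreated cells. The treated libraries held 51.6% of the untreated mean (-0.95 ± 0.11, limma adjusted p = 0.0274). MCM3 had 3689 and 4013 normalised counts in treated cells, against 6941 and 7046 in untreated cells, and neither treated library came near the untreated ones (-0.86 ± 0.07, limma adjusted p = 0.0232). MCM4 fell by 0.30 on the log2 scale. MCM5 at -0.44, MCM8 at -0.47 and MCM10 at -0.34 did not pass, although both treated libraries were below both untreated ones for each. MCM2 differed by 0.09 and MCM7 by 0.44, MCM7 having 10494 and 13641 normalised counts in treated cells, against 8047 and 9684 in untreated cells. Genes that encode subunits of the same ring thus ranged from -0.95 to 0.44.

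Among the firing factors CDC45, which joins the MCM ring to form the active helicase, had 533 and 531 normalised counts in treated cells, against 1010 and 1063 in untreated cells. The 2 treated libraries were nearly equal and stood at 51.3% of the untreated mean (-0.95 ± 0.075, limma adjusted p = 0.0232). GINS2, a subunit of the GINS complex, fell by 0.49, and GINS1 and GINS4 differed by -0.62 and -0.22 without passing. GINS3, the remaining subunit, went the other way, with 882 and 1251 normalised counts in treated cells, against 395 and 498 in untreated cells. Its 2.39-fold ratio was the largest of the 48 genes and its libraries did not overlap between groups, but the log2 difference of 1.22 ± 0.23 did not pass (limma adjusted p = 0.0533). CDC7 and DBF4, kinase and activator, differed by -0.21 and -0.32 without passing.

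ORC6 was the gene that rose in the fit without pairing. It had 1497 and 1744 normalised counts in treated cells, against 891 and 967 in untreated cells, a 1.74-fold ratio without overlap (0.79 ± 0.11, limma adjusted p = 0.0347). Its partner in the origin recognition complex ORC3 fell by 0.64, ORC2 differed by -0.66 without passing, and ORC1 by -0.04 with overlapping libraries. Of the licensing genes CDT1, which brings the MCM ring to origins, fell by 0.51, whereas GMNN, the inhibitor of CDT1, and CDC6 differed by -0.23 and 0.03 and did not pass. RPA1, the large subunit of the single-strand binding complex, fell by 0.53, and RPA2 and RPA3 at 0.09 and -0.38 did not pass. RRM1, a subunit of ribonucleotide reductase, fell by 0.60 and TYMS, thymidylate synthase, by 0.54, while RRM2, the partner of RRM1, differed by -0.08. CHAF1A, a subunit of chromatin assembly factor 1, fell by 0.77, and its partner CHAF1B at -0.78 did not pass (limma adjusted p = 0.069).

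**Figure D1:**
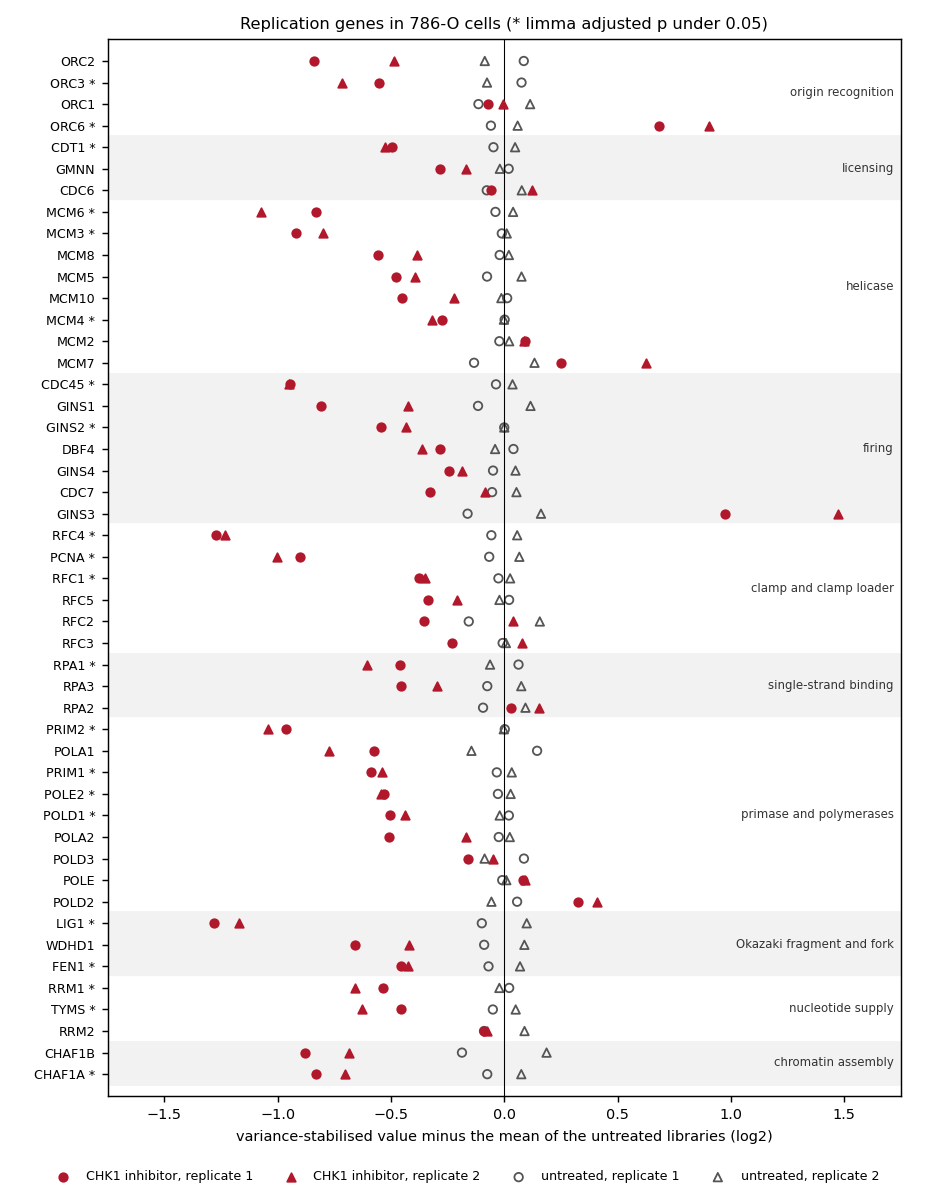
Variance-stabilised value of each of the 48 genes in each 786-O library, minus the mean of the untreated libraries (x axis, log2), grouped by role down the page; filled symbols are CHK1 inhibitor libraries and open symbols untreated ones, with a circle for replicate 1 and a triangle for replicate 2. Most filled symbols lie left of 0, with RFC4 at -1.25 and LIG1 at -1.23 as the farthest means, and ORC6 and GINS3 lie right of 0 at 0.79 and 1.22.

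The 786-O count depended on how the spread of 2 libraries per group was estimated. With the experiment as a replicate block, 27 genes fell and 4 rose (background 19%, 9.71% lower and 9.31% higher), GINS3, MCM7 and POLD2 joining ORC6 among the genes that rose and MCM5, MCM8, GINS1, RPA3, POLA1, CHAF1B and WDHD1 joining those that fell (limma adjusted p from 0.0116 to 0.0475 for the 10). When limited to genes whose mean was 5 or more, 30 fell and 4 rose (background 48.9%, 25.2% lower and 23.7% higher), and with voom on the recovered counts 30 fell and 3 rose (background 35.6%, 19.4% lower and 16.2% higher). Without replicate 1 or replicate 2 of the treated cells the count was 2 and 3, below the 13.4% and 16.3% of all genes that passed. Without either untreated library it was 0 of the 48 and 0 of all genes by limma. The values without one library kept their direction for each of the 21 genes.

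Other genes of the pathway, taken from lists written with earlier results of these data known, moved partly with them. Their counts come from the fit over all 29353 genes, of which 13.2% passed. A separate fit of the 12731 genes whose mean was 5 or more, with its own adjustment, called 48.9% of them. The counts here are not from that fit, and the first share also covers genes with lower means. Neither share is thus an exact background. Of 37 further replication genes with a row in the human table, 10 fell and 4 rose. DNA2, a nuclease of Okazaki fragments, ORC4, another subunit of the origin recognition complex, and DONSON, a fork factor, had log2 differences of -1.19, -0.96 and -1.08, while TOP1, topoisomerase I, TIPIN, a fork protection factor, and POLE3, a small polymerase epsilon subunit, rose by 0.94, 0.73 and 0.72 (limma adjusted p from 0.0246 to 0.0481 for the 6). Of 21 E2F and cell cycle regulators, 8 fell and 3 rose, with E2F2, RBL2 and CCNA2 at -1.76, -1.71 and -1.63 on the log2 scale and E2F7, a repressor of E2F target genes, CDC25A and E2F4 at 1.83, 0.71 and 0.63. Of 20 mitotic genes, which mark cycling cells, 5 fell and 3 rose, with a median difference of 0.01: ANLN, KIF11 and BUB1 were at -0.98, -0.91 and -0.84, and AURKA, TPX2 and MKI67 at 0.82, 0.51 and 0.35.

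In Renca tumours labelled SETD2 KD, VE822 was accompanied by lower levels of 14 of the 48 genes and higher levels of 2 (limma adjusted p under 0.05, background 22.2% of 15916 genes, 11.6% lower and 10.6% higher). The median difference was -0.08 on the log2 scale, beside 0.01 over all genes tested, so the differences were small: from -0.36 for Prim1 to 0.38 for Cdc7. The 14 were the helicase genes Mcm3, Mcm4, Mcm5 and Mcm6, the licensing genes Cdt1 and Gmnn, the GINS genes Gins2 and Gins3, Pcna, Rpa2, Pola2, Prim1, Rrm1 and Chaf1b. The 2 that rose were Cdc45 and Cdc7, both needed to fire a licensed origin.

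Cdc45 lies at chr16:18780447-18811987 (GRCm38). It had rlog values of 11.03, 11.12, 11.18, 10.83 and 11.11 in the SETD2 KD tumours with VE822, against 10.61 to 10.75 with a median of 10.67 in the untreated ones. Every treated library was above every untreated one, with replicate 4 lowest, and the log2 difference was 0.38 ± 0.05 (SE, n = 5 and 6, limma adjusted p = 2.85e-05). The gene overlaps Ufd1 on the opposite strand, and since strandedness is not given in the sources used here, reads of the 2 genes cannot be told apart. Cdc7, the kinase that phosphorylates the MCM ring, had rlog values of 8.53, 8.53, 8.76, 8.73 and 8.80 with VE822, against 8.19 to 8.47 with a median of 8.28 untreated. Treated and untreated libraries did not overlap, and the difference was 0.38 ± 0.09 (limma adjusted p = 0.00281).

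The helicase genes that fell did so without overlap. Mcm4 (chr16:15623897-15637400) had rlog values of 12.78, 12.74, 12.91, 12.91 and 12.87 with VE822, against 13.07 to 13.26 with a median of 13.20 untreated (-0.35 ± 0.04, limma adjusted p = 4.23e-06). Mcm5 (chr8:75109569-75128439) had 11.17, 11.24, 11.35, 11.39 and 11.32 with VE822, against 11.55 to 11.72 with a median of 11.62 untreated (-0.33 ± 0.06, limma adjusted p = 0.000163). All 5 treated libraries were below all 6 untreated ones for each of these genes. Mcm6 had 12.91, 12.87, 12.90, 12.82 and 12.82 with VE822, against 12.99 to 13.16 with a median of 13.10 untreated (-0.22 ± 0.05, limma adjusted p = 0.00129). Mcm3 had 12.63, 12.66, 12.65, 12.64 and 12.61 with VE822, against 12.72 to 12.85 with a median of 12.79 untreated (-0.16 ± 0.03, limma adjusted p = 0.00105). The treated libraries were again all below the untreated ones. The other helicase genes Mcm2, Mcm7, Mcm8 and Mcm10 did not pass, with Mcm8 highest at 0.13.

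Prim1 (chr10:128015168-128030037), the catalytic primase subunit, had 9.72, 9.72, 9.76, 10.18 and 9.78 with VE822, against 10.07 to 10.26 with a median of 10.20 untreated. Of the treated libraries 4 lay below all untreated ones and replicate 4 lay among them, with a difference of -0.36 ± 0.07 (limma adjusted p = 0.00107). With the chromosome medians removed it was -0.22, chromosome 10 having shifted by -0.14, and still passed. Gins2 had 10.20, 10.18, 10.22, 9.79 and 10.04 with VE822, against 10.25 to 10.51 with a median of 10.36 untreated, and replicate 4 was here the lowest (-0.29 ± 0.08, limma adjusted p = 0.00997). Pcna had 13.53, 13.56, 13.56, 13.42 and 13.51 with VE822, against 13.57 to 13.72 with a median of 13.66 untreated. The Pcna groups came close without overlapping (-0.13 ± 0.04, limma adjusted p = 0.029).

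The remaining 7 genes that fell in the SETD2 KD label were Pola2 (-0.27), the regulatory subunit of polymerase alpha, Chaf1b (-0.26), Gins3 (-0.22), Rrm1 (-0.16), Gmnn (-0.14), Cdt1 (-0.13) and Rpa2 (-0.13). Cdt1, Gins2 and Gins3 lie on chromosome 8, which shifted as a whole by -0.09, and did not pass with the median of each chromosome removed (limma adjusted p = 0.53, 0.0679 and 0.257). Cdt1 and Gins2 also overlap other annotated genes. By role, 4 of 8 helicase genes, 2 of 3 licensing genes, 2 of 7 firing genes and 2 of 9 primase and polymerase genes fell, and no origin recognition gene passed. Without library SETD2 KD VE822 4 the calls of Chaf1b (-0.16, limma adjusted p = 0.0646), Cdt1 (-0.08, limma adjusted p = 0.127), Gmnn, Pcna and Rpa2 were lost. Over all libraries left out in turn the count ranged from 11 to 17.

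For the other pathway genes in the SETD2 KD label the shares that passed were near or below the 22.2% of all genes. Of 38 further replication genes 5 fell and 4 rose with VE822 (23.7%), with log2 differences of -0.33 for Asf1a, a histone chaperone, -0.30 for Rnaseh2b, 0.35 for Pole4, 0.33 for Samhd1, a dNTP hydrolase, and 0.28 for Rnaseh2c. Of 21 E2F and cell cycle regulators 2 fell (Tfdp2 by 0.34 and Cdk2 by 0.24) and 2 rose (Cdc25a by 0.29 and Ccne1 by 0.25). Of 20 mitotic genes 1 fell, Cdk1 by 0.20.

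In Renca tumours labelled WT, 6 of the 48 genes fell with VE822 and 4 rose, on a background of 34.7% of all genes tested (17.5% lower and 17.2% higher). The share of replication genes was thus below the background share, and their median difference was -0.03, beside 0.01 over all genes tested. The 6 were Mcm4, Mcm5, Prim1, Pola2, Gins3 and Wdhd1, and the 4 that rose were Cdc45, Cdc7, Mcm2 and Rfc5.

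Cdc45 had rlog values from 10.91 to 11.22 with a median of 11.01 in the WT tumours with VE822, against 10.51 to 10.62 with a median of 10.59 in the untreated ones. No treated library came near the untreated range, and the log2 difference of 0.45 ± 0.05 was the largest increase of the 48 (n = 6 and 7, limma adjusted p = 4.74e-07). Cdc7 ranged from 8.28 to 8.92 with a median of 8.60 with VE822, against 8.18 to 8.47 with a median of 8.31 untreated. Treated libraries spread widely and the groups overlapped (0.28 ± 0.08, limma adjusted p = 0.00833). Mcm2 ranged from 12.50 to 12.66 with a median of 12.55 with VE822, against 12.23 to 12.40 with a median of 12.37 untreated, with no overlap (0.22 ± 0.05, limma adjusted p = 0.00161). With the median of each chromosome removed Mcm2 did not pass, at 0.08: chromosome 6, where it lies, was shifted upwards as a whole by 0.14. Rfc5, a clamp loader subunit, ranged from 10.17 to 10.52 with a median of 10.22 with VE822, against 10.00 to 10.27 with a median of 10.08 untreated (0.20 ± 0.06, limma adjusted p = 0.00703), and the groups overlapped. The Rfc5 gene overlaps Wsb2 on the opposite strand, so the limit given for Cdc45 and Ufd1 holds for it too.

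Mcm4 ranged from 12.66 to 12.82 with a median of 12.72 with VE822, against 13.07 to 13.20 with a median of 13.12 untreated. The gap between the groups was wider than either group, and the log2 difference of -0.41 ± 0.04 was the largest decrease of the 48 (limma adjusted p = 8.02e-08). Prim1 ranged from 9.62 to 9.97 with a median of 9.72 with VE822, against 10.02 to 10.27 with a median of 10.11 untreated, without overlap (-0.38 ± 0.07, limma adjusted p = 0.000117). With the chromosome medians removed it was lower by 0.18, chromosome 10 as a whole having shifted by -0.20, and still passed. Wdhd1 ranged from 9.50 to 9.93 with a median of 9.87 with VE822, against 10.09 to 10.23 with a median of 10.13 untreated, also without overlap (-0.34 ± 0.07, limma adjusted p = 0.000724). Pola2 ranged from 10.54 to 10.78 with a median of 10.70 with VE822, against 10.82 to 11.01 with a median of 10.92 untreated. Its libraries did not overlap either (-0.23 ± 0.05, limma adjusted p = 0.000652). Mcm5 fell by 0.22 and Gins3 by 0.19; with the chromosome medians removed these values were -0.13 (limma adjusted p = 0.0375) and -0.10 (limma adjusted p = 0.287), and Gins3 stopped passing when any of 9 libraries was left out.

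Mcm6, Mcm3 and Pcna, which fell in the SETD2 KD label, did not pass in the WT label. Mcm6 ranged from 12.77 to 12.97 with a median of 12.86 with VE822, against 12.87 to 13.05 with a median of 13.02 untreated (-0.11 ± 0.04, limma adjusted p = 0.054). Mcm3 ranged from 12.59 to 12.73 with a median of 12.65 with VE822, against 12.69 to 12.76 with a median of 12.73 untreated (-0.07 ± 0.03, limma adjusted p = 0.0648). Treated and untreated libraries overlapped for both genes. Pcna ranged from 13.45 to 13.72 with a median of 13.49 with VE822, against 13.53 to 13.60 with a median of 13.55 untreated (-0.03 ± 0.04, limma adjusted p = 0.626). For Pcna 1 treated library, replicate 3, was above every untreated library and the other 5 were below. The other pathway genes passed at shares below or near the 34.7% of all genes: 15.8% of the further replication genes, 33.3% of the regulators and 25% of the mitotic genes. Among them, 3 of 38 further replication genes fell, with Asf1a at -0.32 and Chtf8 at -0.24, and 3 rose (Pole4 at 0.48, Rnaseh2c at 0.31 and Nasp at 0.19). Of 21 regulators 3 fell (Tfdp2 at -0.38, Cdk2 at -0.35 and Rbl2 at -0.28) and 4 rose, with Ccne1 at 0.42, Cdc25a at 0.34 and Mybl2 at 0.27. Of 20 mitotic genes 5 rose, led by Birc5 at 0.33, Ccnb1 at 0.21 and Aurka at 0.19.

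**Figure D2:**
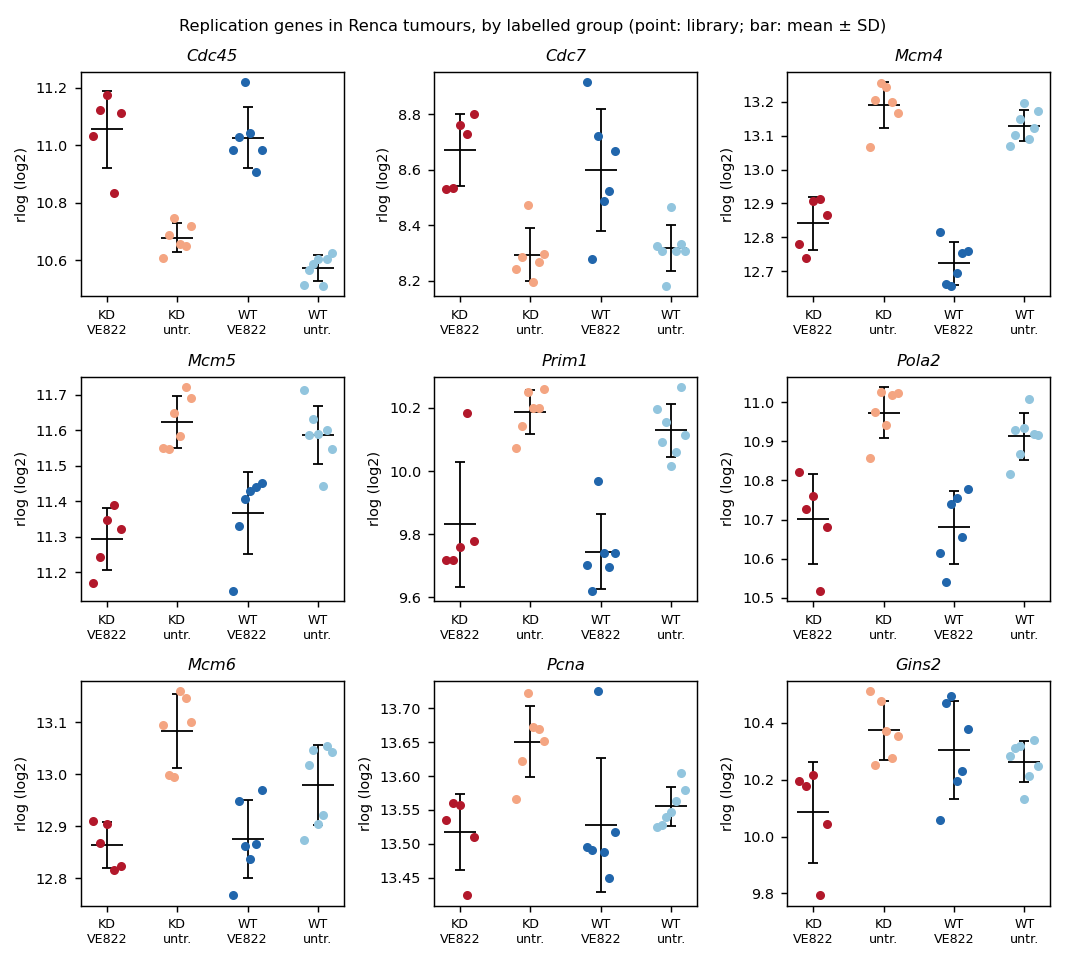
Rlog values (y axis, log2) of Cdc45, Cdc7, Mcm4, Mcm5, Prim1, Pola2, Mcm6, Pcna and Gins2 in each Renca tumour by labelled group; points are libraries and bars the mean ± SD. Cdc45 is above the untreated ranges in all treated tumours of both labels, Mcm4 is below them in all, and Prim1 in SETD2 KD VE822 has 1 library at 10.18 among the untreated values.

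Markers of other cell types moved with VE822, and their part in these results was not tested beyond the values here. All 9 genes of the T cell list rose in the SETD2 KD label and 8 of 9 in the WT label. The T cell list mean ranged from 5.81 to 6.59 in SETD2 KD VE822 and from 4.98 to 5.34 in SETD2 KD untreated. It ranged from 5.31 to 6.62 in WT VE822 and from 4.94 to 5.60 in WT untreated. The skeletal muscle list mean ranged from 4.15 to 4.55 in SETD2 KD VE822, 4.35 to 5.17 in SETD2 KD untreated, 4.39 to 8.89 in WT VE822 and 4.31 to 6.75 in WT untreated. The macrophage list mean ranged from 11.97 to 12.22 in SETD2 KD VE822, 12.29 to 12.51 in SETD2 KD untreated, 11.76 to 12.39 in WT VE822 and 12.14 to 12.76 in WT untreated. The renal carcinoma list mean ranged from 11.02 to 11.17 in SETD2 KD VE822, 11.28 to 11.36 in SETD2 KD untreated, 11.03 to 11.21 in WT VE822 and 11.15 to 11.37 in WT untreated, and the fibroblast list mean ranged from 9.34 to 10.79 in SETD2 KD VE822, 8.68 to 10.43 in SETD2 KD untreated, 9.91 to 12.89 in WT VE822 and 8.45 to 10.80 in WT untreated. With the T cell and muscle list means as covariates the replication genes that passed were Cdc45, Cdc7, Mcm4 and Mcm5 in the SETD2 KD label, 4 in place of 16, and Cdc45, Cdc7, Mcm2, Rfc5, Mcm4 and Mcm5 in the WT label, 6 in place of 10. The share of all genes called fell as well, to 4.97% in the SETD2 KD label and 12.9% in the WT label. In the SETD2 KD label the T cell list mean did not overlap between treated and untreated tumours. The model therefore cannot separate it well from VE822 there, and why calls were lost was not tested. Under that model Mcm4 differed by -0.32 in the SETD2 KD label and -0.41 in the WT label, and Cdc45 by 0.47 and 0.53. Genes that no longer passed in the SETD2 KD label included Mcm3 at -0.17, Mcm6 at -0.23, Gins2 at -0.30 and Pola2 at -0.24, close to their values without the covariates, and Prim1 at -0.25 and Pcna at -0.03, which were nearer to 0. Without the 5 libraries that stood apart, 15 genes passed in the SETD2 KD label (29.9% of all genes): Orc2 (-0.17), Rfc3 (-0.17) and Wdhd1 (-0.19) passed in addition, and Cdt1, Gmnn, Pcna and Chaf1b did not. In the WT label 9 passed (28.6% of all genes), Gins3 being lost at -0.10 (limma adjusted p = 0.474).

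The 2 VE822 comparisons use different libraries and can be set side by side. Mcm4, Mcm5, Gins3, Pola2 and Prim1 fell in both, and Cdc45 and Cdc7 rose in both. No gene passed in opposite directions. The 7 shared genes are 43.8% of the 16 called in the SETD2 KD label and 70% of the 10 called in the WT label, against 73.6% and 47.1% over all genes tested. The sign of the difference was the same for 30 of the 48 genes, against 76% of all genes, and Pearson's r between the 2 sets of differences was 0.70 over the 48 and 0.83 over all genes, given as a description across genes that share libraries. The 9 genes called in the SETD2 KD label and not in the WT label were Mcm3, Mcm6, Cdt1, Gmnn, Gins2, Pcna, Rpa2, Rrm1 and Chaf1b, of which Mcm3, Mcm6, Pcna and Rrm1 had negative differences in the WT label too.

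The test of the difference itself, the interaction of label and VE822, called 0 of the 48 genes and 0 of all genes by limma (percent called 0), while an unadjusted p under 0.05 was found for 10 of the 48 and for 9.12% of all genes. The lowest interaction was for Gins2 at -0.33 ± 0.11 (limma adjusted p = 0.438): this gene differed by -0.29 with VE822 in the SETD2 KD label and by 0.04 in the WT label. Chaf1b at -0.27, Gmnn at -0.20 and Cdt1 at -0.20 were on the same side, and Mcm8 at 0.24 was the highest. A difference between the labels in the VE822 response of these genes was therefore not detectable with these libraries.

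**Figure D3:**
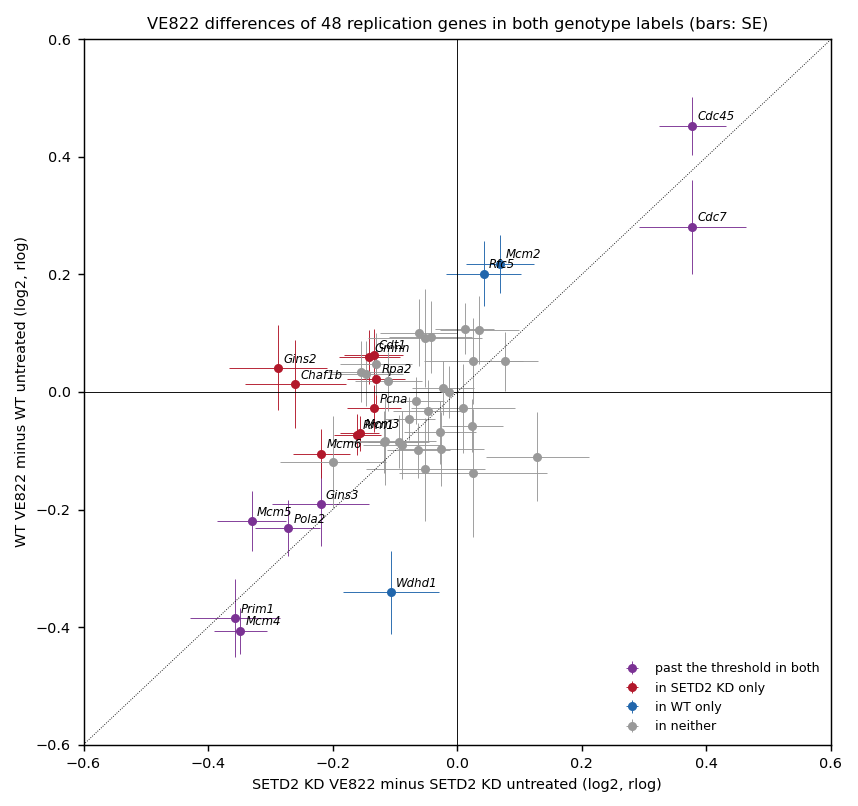
Log2 difference with VE822 for each of the 48 genes in tumours labelled SETD2 KD (x axis) and WT (y axis), with bars for the SE and the diagonal dotted; colours mark genes past limma adjusted p under 0.05 in both labels, in 1 or in neither. Cdc45 and Cdc7 lie in the upper right, Mcm4 and Prim1 in the lower left, and Gins2 and Chaf1b lie left of the diagonal near 0 on the y axis.

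Set beside 786-O cells, the tumours shared some genes. Of the 20 genes that fell with CHK1 inhibitor in 786-O, 8 also fell with VE822 in the SETD2 KD label, beside 11.6% of all genes. The 8 were MCM3, MCM4, MCM6, CDT1, GINS2, PCNA, PRIM1 and RRM1. In the WT label 2 of the 20 fell (MCM4 and PRIM1), beside 17.5% of all genes. The 20 are drawn from the 48, of which 16 passed in the SETD2 KD label and 10 in the WT label, in either direction. The numbers of the 48 that fell in each label, given above, are a closer background than the shares of all genes. CDC45 differed in direction, at -0.95 in 786-O against 0.38 and 0.45 in the tumours, and ORC6, at 0.79 in 786-O, was among the genes that did not pass in either tumour label. Species, compound, dose, time and setting all differ between these data, so the values are set side by side and no test was made. Pearson's r between the differences in 786-O and in the tumours over the 48 genes was -0.08 for the SETD2 KD label and -0.06 for the WT label, given as a description.

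Between the genotype labels, no replication gene passed. In untreated tumours 0 of the 48 passed by limma for SETD2 KD against WT, as did 0 of all genes tested (percent called 0), while 9 of the 48 and 3.22% of all genes were at an unadjusted p under 0.05. The difference was positive for 44 of the 48 genes, beside 49.9% of all genes. It was small, with a median of 0.06 and a range from -0.08 for Mcm8 to 0.20 for Chaf1b. Libraries of the 2 groups overlapped for all 48, and the share of all genes that overlapped is not given here. With VE822, 0 of the 48 passed for SETD2 KD against WT (0.0126% of all genes, 0.00628% lower and 0.00628% higher), 6 were at an unadjusted p under 0.05 (12.8% of all genes), and differences ran from -0.22 for Gins2 to 0.24 for Wdhd1. These comparisons share libraries with those of VE822 above.

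Tumours of the same group differed more from each other in some libraries than in others. Library WT VE822 3 held the highest value of its group for 25 of the 48 genes and the lowest for 3, where an even share would be 8. WT untreated 6 was highest for 22 of the 48 and lowest for 2, and SETD2 KD untreated 1 was lowest for 23 and highest for 4. SETD2 KD VE822 4 was both the highest for 13 and the lowest for 18. After group means were removed, the median Pearson correlation over the 1128 pairs of the 48 genes was 0.20 across the 24 libraries, and 71% of pairs were above 0; the values share libraries and their normalization, and this is a description only.

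**Figure D4:**
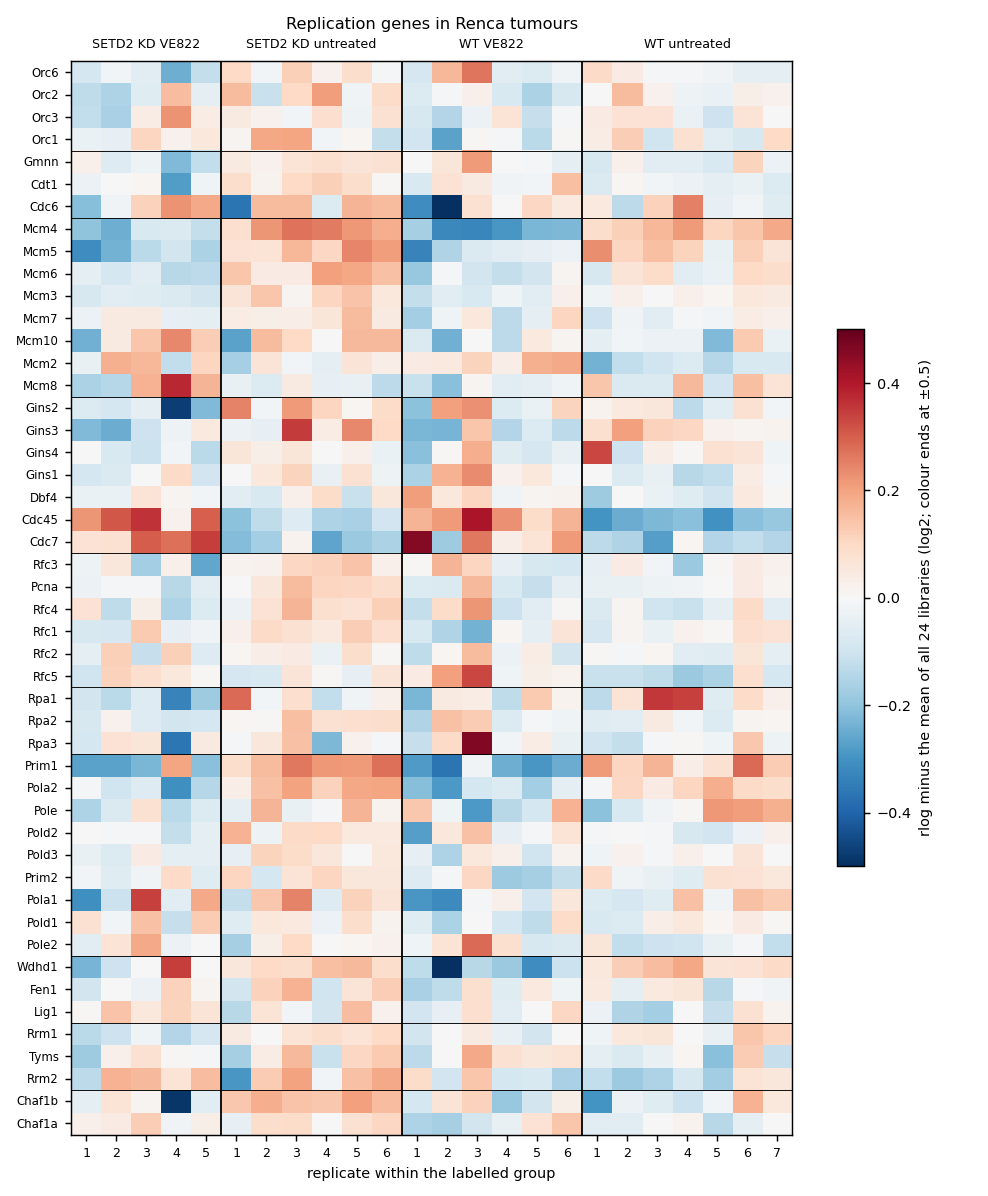
Rlog value of each of the 48 genes in each of the 24 Renca libraries minus the mean of all 24 (colour, log2, ending at ±0.5), with genes ordered by role down the page and libraries by labelled group. Cdc45 and Cdc7 are mostly red in the VE822 groups, Mcm4 and Prim1 mostly blue, and WT VE822 3 and SETD2 KD VE822 4 differ from the other libraries of their groups.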

How the data were processed

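The authors deposited the human table as variance-stabilised log2 values per gene symbol and the mouse table as rlog values, also log2, per Ensembl gene over 24 tumours, per the file headers. FastQC, TopHat, HTSeq and DESeq2, with builds hg38 and GRCm38, are named in the submitters' processing notes without versions; the sources used here do not give the annotation or strandedness. Because the tables hold log2 values, limma 3.58.1 in R 4.3.3 was used for every comparison (empirical Bayes with a mean-variance trend, Benjamini-Hochberg adjustment over all genes tested, threshold 0.05). Human genes were all 29353 that vary over the 4 libraries, with 2 group means. Mouse genes were the 15916 whose rlog averaged 3 or more, with 4 group means over 24 libraries. Human counts were recovered by inverting the transform (100% of values below 1000 whole within 0.1) and divided by their size factors for display.

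Groups came from the labels. The 2 human experiments number the libraries in pairs, and the deviations of paired libraries correlated at 0.51 over the 12731 genes whose mean was 5 or more, 0.46 over the 48 genes and 0.16 over all genes tested. Whether libraries are separate cultures or animals is not stated for each, so a p-value reflects the library-to-library spread alone, which may be technical. The 48 genes, the other lists, the tests and the alternatives were chosen with earlier results of these data known. For CDC45, MCM6, PCNA and MCM3 and for the 4 largest changes past the threshold in each direction, values are given as follows. Each library is given in 786-O and in SETD2 KD VE822, and the range and median in the other tumour groups. GINS3 and MCM7 were added after their values were seen. Of the other pathway genes, the 3 largest changes past the threshold in each direction are named, except for an item not reported here. Of the 48 mouse genes 13 overlap another protein-coding gene. The fits were tested on simulated data.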

Additional observations from a re-analysis of the deposited data

Results flagged for a closer look

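Among 19 genes whose values are given or called, 76 sets of gene and labelled tumour group were screened for 1 library far from the rest by Dixon's ratio of gap to range, which chance exceeds in about 1 in 20; 9 did. In SETD2 KD VE822 4, Cdt1 was lowest at 10.91 with the next library at 11.16, Chaf1b was lowest at 11.74 with the next at 12.17, and Prim1 was highest at 10.18 with the next at 9.78. Rpa2 was highest in SETD2 KD VE822 2 at 10.36 and Cdc7 highest in SETD2 KD untreated 3 at 8.475. In WT VE822 3, Pcna was highest at 13.72 and Prim1 highest at 9.97. In untreated WT tumours Mcm2 was lowest in replicate 1 at 12.23 and Rfc5 highest in replicate 6 at 10.27. The reasons were not tested.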

How the results depend on the processing

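In 786-O cells 21 genes passed, 31 with a replicate block, 30 with the libraries shifted to a common median, 34 among genes whose mean was 5 or more, 33 with voom on recovered counts, 0 without the mean-variance trend (as for all genes by limma; 29 of the 48 and 29.5% of all genes at an unadjusted p under 0.05), and 0 to 3 with a library left out, where a lone library is taken to vary like the others. The cause of these differences was not tested. None of the 21 genes passed under every alternative and none changed direction. With VE822 in the SETD2 KD label 16 passed, 4 with muscle and T cell list means as covariates, 11 to 18 under the other alternatives and 11 to 17 with a library left out. In the WT label 10 passed, 6 with these covariates, 9 to 12 under the others and 9 to 11 with a library left out. Cdc45, Cdc7, Mcm4 and Mcm5 passed under every alternative in both labels, and Rfc5 in the WT label. The counts of 0 between labels and for the interaction stayed 0 under every alternative, 0 to 0 with a library left out. Pcna in the WT label, not past the threshold, turned positive with chromosome medians removed (0.0021), with the covariates (0.072) and without the 5 libraries that stood apart (0.0075, chosen after seeing the data). Human precision is limited by 2 libraries a group, and mouse depth is unknown.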
